A study of Mus musculus with 10 samples.

Results

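The 41 genes described here encode the actin-based contractile apparatus and its muscle forms. They include the transcription factors Srf, Mef2a, Mef2c and Mef2d, 4 actins, 12 thin filament proteins and 6 myosin subunits or kinases. Also included are 5 genes grouped as crosslinkers, 4 LIM proteins and 4 proteins of striated muscle. The members were taken by symbol from a fixed list, chosen with earlier results of these data known. All 41 were found among the 46095 gene symbols of the RNA-seq count table. After a filter on low counts 40 of the 41 were tested, and Tnnt2 was not. The cells are C3H10 T1/2, an established line from mouse embryo with a fibroblast shape that can take on mesenchymal fates. RNA-seq covered 3 control libraries and 3 of cells put under cyclic mechanical strain. The cells of both groups had been grown for 48 h on flexible plates coated with type I collagen, and the strain was a stretch of 10% at 0.5 Hz for 8 h a day over 3 days. Open chromatin was measured by ATAC-seq, which reads where the Tn5 transposase can enter DNA, in 2 libraries of GFP control cells and 2 of cells in which CRISPR/Cas9 was used to knock out Piezo1, which encodes a stretch-gated ion channel. The labels name no strain for these 4 cultures. The labels give the mouse strain of the RNA samples as C57BL/6, while the name of the line points to C3H mice, and the sources used here do not settle this. Whether the knockout cells are 1 clone is not given in the sources used here, and their RNA was not analysed here, so the loss of Piezo1 was not checked.

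In a contractile cell, myosin II pulls on actin filaments that alpha-actinin and filamin hold in bundles, while tropomyosin, calponin, transgelin, caldesmon and smoothelin line the filaments. Phosphorylation of the myosin light chain by its kinase switches the pull on, and a phosphatase reverses it. Serum response factor, SRF, binds the CArG box and, with its myocardin-related cofactors, which are held back by free actin monomers, activates many of these genes; MEF2 factors act on muscle genes.

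Libraries held 36150738 to 41024689 counts, and the 41 genes took 2.08% to 2.21% of them in control libraries and 1.83% to 2.19% under strain. Control replicate 3 and strain replicate 1 stood apart from their groups, with chi-square values per degree of freedom no lower than 37.6 against their own replicates, beside 9.75 and 16.7 for the remaining pairs. Control replicate 3 had the highest value of 18 of the 40 tested members, and 28.2% of all genes. Strain replicate 1 had the lowest value of 21 of the 40, and 17.4% of all genes. Log2 fold changes over 0.1 in size that moved by over 1.5 times without both libraries are given with that value beside the gene. The choice of these libraries was made after seeing the data, so adjusted p-values of fits without both are descriptive only.

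Fibroblast transcripts Col1a1, Col3a1, Vim and Pdgfrb were present in all 6 libraries, while Thy1 was at 0.0569 CPM (CPM being counts scaled to a common library total) or less. The summed level of the 8 fibroblast markers was 79460 to 87940 CPM in controls and 58630 to 69990 CPM under strain, and 4 of its 7 tested genes were lower. The skeletal muscle regulators Myod1, Myog, Myf5 and Myf6 had 0 counts in every library, which allows up to 0.0853 CPM in the least sensitive one. Of 11 skeletal muscle markers 7 were at 0 in all 6 libraries, and the sum of the list was 1.97 to 3.24 CPM in controls and 1.53 to 2.50 CPM under strain. Of 8 cardiac markers 4 were at 0 throughout, with sums of 0.140 to 0.967 CPM and 0.170 to 0.294 CPM. The smooth muscle myosin gene Myh11 stayed at 0.214 CPM or less and the smooth muscle coactivator gene Myocd at 0.0535 CPM or less. The 8 smooth muscle markers, 5 of them members, summed to 274 to 313 CPM in controls and 207 to 236 CPM under strain. Of these 8, 2 were called lower, the members Smtn (mean 209 to 131 CPM) and Des (2.65 to 1.44 CPM). The 4 not called, Actg2 (47.2 to 56.0 CPM), Lmod1 (21.6 to 22.4 CPM), Cnn1 and Synpo2, had higher means under strain. Endothelial sums lay at or below 1.19 CPM, with Cdh5 and Emcn at 0. The 5 epithelial markers summed to 8.42 to 9.69 CPM and 2.95 to 4.53 CPM, with Epcam at 0. Of these Cdh1 was called lower (mean 7.57 to 2.02 CPM) and Krt14 was not called (1.48 to 1.82 CPM). The 6 macrophage or leukocyte markers summed to 12.1 to 15.3 CPM and 14.3 to 16.5 CPM, with Ptprc at 0. The part of such differences in the results was not tested.

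Under strain 12 of the 40 tested members were lower and 0 were higher (edgeR quasi-likelihood test, Benjamini-Hochberg adjusted p under 0.05 over all genes). They were the transcription factor gene Mef2c, the tropomyosin genes Tpm1 and Tpm2, Cnn2, Smtn, the myosin light chain gene Myl9 and its kinase gene Mylk, the LIM genes Csrp1 and Csrp2, and the low-level striated muscle genes Des, Tnnt1 and Tnni1. Their log2 fold changes ran from −1.84 to −0.47. In bulk RNA, fewer cells of a type and less RNA per cell cannot be told apart. No actin or crosslinker gene was called. The background over 15335 genes was 7.39% called lower and 5.94% called higher, against 30.0% and 0% of the members. The members' median log2 fold change was −0.15 and 28 of 40 lay below 0, while over all genes the median was 0.01 and 49.4% lay below 0. In 19 members every control library lay above every strain library, against a background of 17.9%, and the reverse held for 0 members, against 17.4%. Because the members were chosen with earlier results of these data known, these shares describe the list and are no test of it. With 1 library left out, 7 to 11 members were lower, 7 without control replicate 3 and 7 without strain replicate 3. Without control replicate 3 and strain replicate 1 together, a choice made after seeing the data, 10 were lower and 3 higher.

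**Figure D1:**
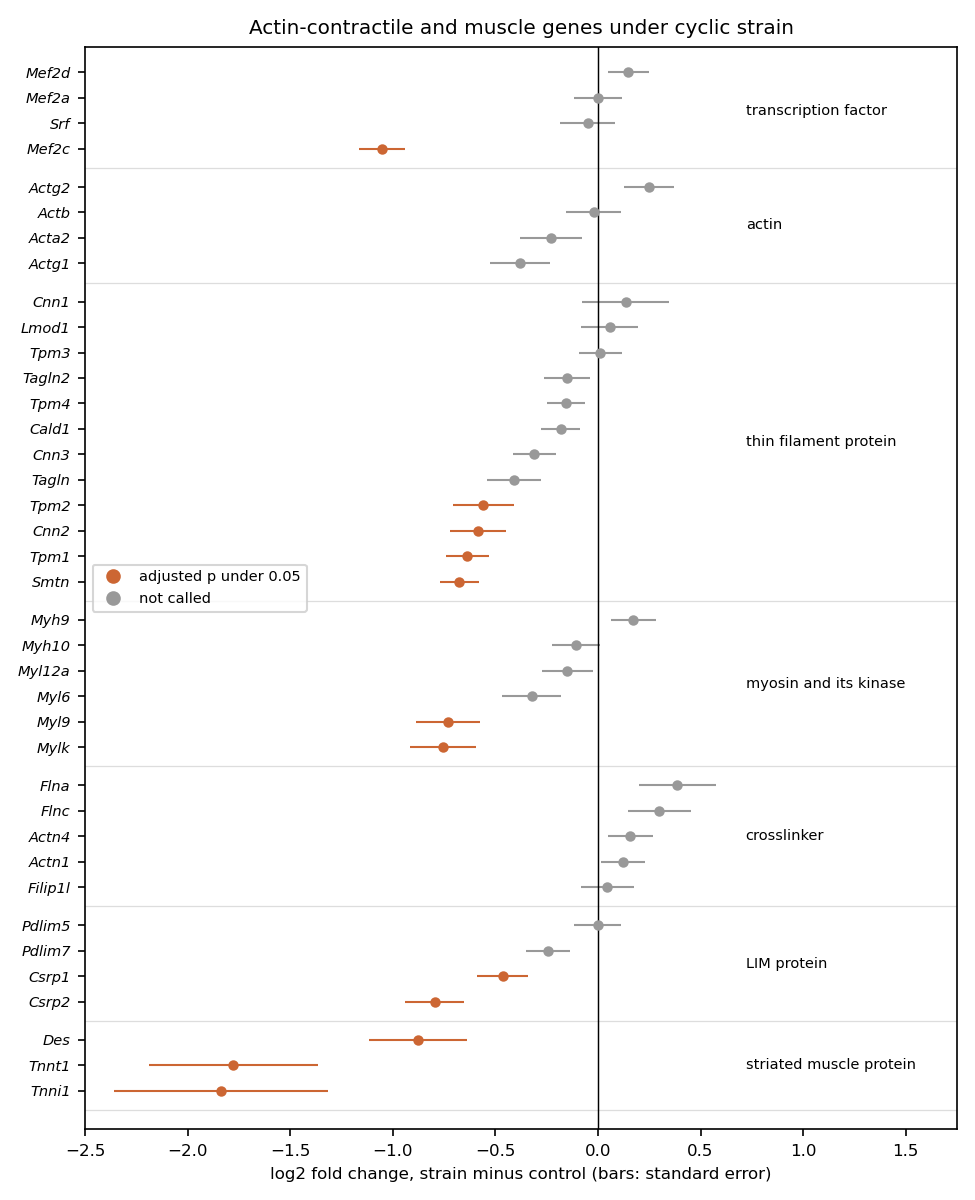
Log2 fold change of 38 tested members under strain, with its standard error, grouped by role (y axis); orange marks an adjusted p under 0.05. The 12 called members all lie left of 0, and the 5 genes grouped as crosslinkers all lie right of 0 without a call.

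Srf itself did not differ beyond the spread between libraries. In replicate order, its level was 123, 136 and 139 CPM in controls and 101, 144 and 138 CPM under strain, a log2 fold change of −0.05 (SE 0.13, adjusted p = 0.834). The groups overlapped, and strain replicate 1 held the lowest value, without which the fold change was 0.09. It was 0.13 without control replicate 3 as well. The cofactor genes Mkl1 and Mkl2, which encode the myocardin-related factors, had log2 fold changes of 0.23 and 0.28 and were not called (adjusted p = 0.200 for both by edgeR). All 5 tested genes of the cofactors and ternary complex factors were above 0 and none was called.

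The sequence before the start of Srf is shown because it holds 2 CArG boxes. An open region, joined from overlapping peaks of all 4 ATAC libraries, spanned them. Whether the peak of each single library reached the boxes was not checked. The CArG box was searched as its consensus, which reads the same on both strands, in RefSeq promoter windows of the GRCm38.p6 assembly (the mm10 build) that run from 250 bases before to 50 after a gene's start. Windows were found for 36 of the 41 members. A box lay in a window of 6 of the 36 (16.7%), against 1.56% of 10520 tested genes and 1.81% of all 27025 genes with a window. By window it was 12.8% of 47 against 1.63% of 32851. Several members were listed for known ties to SRF, so this share is a description of the list. The 250 bases upstream of the start follow for Srf (chr17:46556163-46556412, minus strand) and for Cnn2 (chr10:79988350-79988599, plus strand) and Myl9 (chr2:156775214-156775463, plus strand), the called members that hold a box. Each is printed 5′ to 3′, with the boxes in capitals.
Srf: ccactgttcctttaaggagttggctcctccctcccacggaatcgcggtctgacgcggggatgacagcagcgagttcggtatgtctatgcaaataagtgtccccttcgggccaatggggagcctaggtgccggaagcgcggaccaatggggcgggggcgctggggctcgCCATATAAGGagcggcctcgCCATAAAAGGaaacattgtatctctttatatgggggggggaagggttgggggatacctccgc
Cnn2: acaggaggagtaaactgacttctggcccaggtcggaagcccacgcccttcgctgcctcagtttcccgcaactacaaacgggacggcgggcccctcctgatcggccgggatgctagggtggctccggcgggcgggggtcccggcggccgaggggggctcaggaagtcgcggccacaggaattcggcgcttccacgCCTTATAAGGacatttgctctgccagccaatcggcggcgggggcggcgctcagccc
Myl9: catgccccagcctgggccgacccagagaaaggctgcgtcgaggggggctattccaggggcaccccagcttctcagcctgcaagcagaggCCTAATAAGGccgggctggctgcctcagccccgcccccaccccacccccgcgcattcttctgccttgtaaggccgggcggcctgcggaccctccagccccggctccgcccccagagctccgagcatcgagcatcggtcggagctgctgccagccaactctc

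The boxes of Srf begin 82 and 62 bases before the start, that of Cnn2 56 bases and that of Myl9 161 bases before it (positions −82, −62, −56 and −161 with the start at +1). The other members with a box were Actg1, Myl6 and Filip1l, none of them called. Their boxes are shown with 25 bases on either side, at chr11:120348551-120348610 (minus strand), chr10:128493025-128493084 (minus strand) and chr16:57549155-57549214 (plus strand).
Actg1: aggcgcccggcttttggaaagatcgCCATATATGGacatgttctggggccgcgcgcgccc
Myl6: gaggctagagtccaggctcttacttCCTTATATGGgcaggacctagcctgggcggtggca
Filip1l: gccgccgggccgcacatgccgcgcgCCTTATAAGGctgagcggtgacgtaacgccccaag
Among members with a window, 2 of the 11 called lower and 4 of the 24 tested but not called held a box. Looser forms of the box were not searched, so a window without a match lacks only the strict letters.

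Of the 3 MEF2 genes, Mef2c fell and the other two were not called. MEF2C drives muscle and chondrocyte genes. Its level was 108, 111 and 92.9 CPM in controls and 49.8, 54.6 and 45.9 CPM under strain, a log2 fold change of −1.05 (SE 0.11, adjusted p = 0.000288 by edgeR). The groups were far apart, with each strain library well under the lowest control. Mef2a was at 79.2 ± 11.2 and 79.1 ± 2.56 CPM (SD, n = 3; log2 fold change −0.00097, SE 0.12). Mef2d was at 93.7 ± 6.39 and 104 ± 6.46 CPM (log2 fold change 0.15, SE 0.10). The sign of the Mef2a difference, near 0, changed with scaling and with the libraries used.

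The ratio of Mef2c to Mef2a, read within each library, moved with the group. On the log2 scale it was 0.38, 0.34 and 0.48 in controls and −0.65, −0.59 and −0.75 under strain, a difference of −1.06. The ratio to Mef2d differed by −1.20. Such a ratio cancels the scaling between libraries, and its difference between groups cancels gene length. In all 16 such ratios were compared. An exact two-sided permutation test of 3 against 3 libraries cannot go below p = 0.1, which 12 of the 16 reached, with an adjusted p of 0.133, so none passed a threshold of 0.05. The ratios were chosen after the data were seen, and several share a called gene such as Mef2c or Tpm1. No share over other gene pairs was computed, so the count of 12 has no background to be read against.

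**Figure D2:**
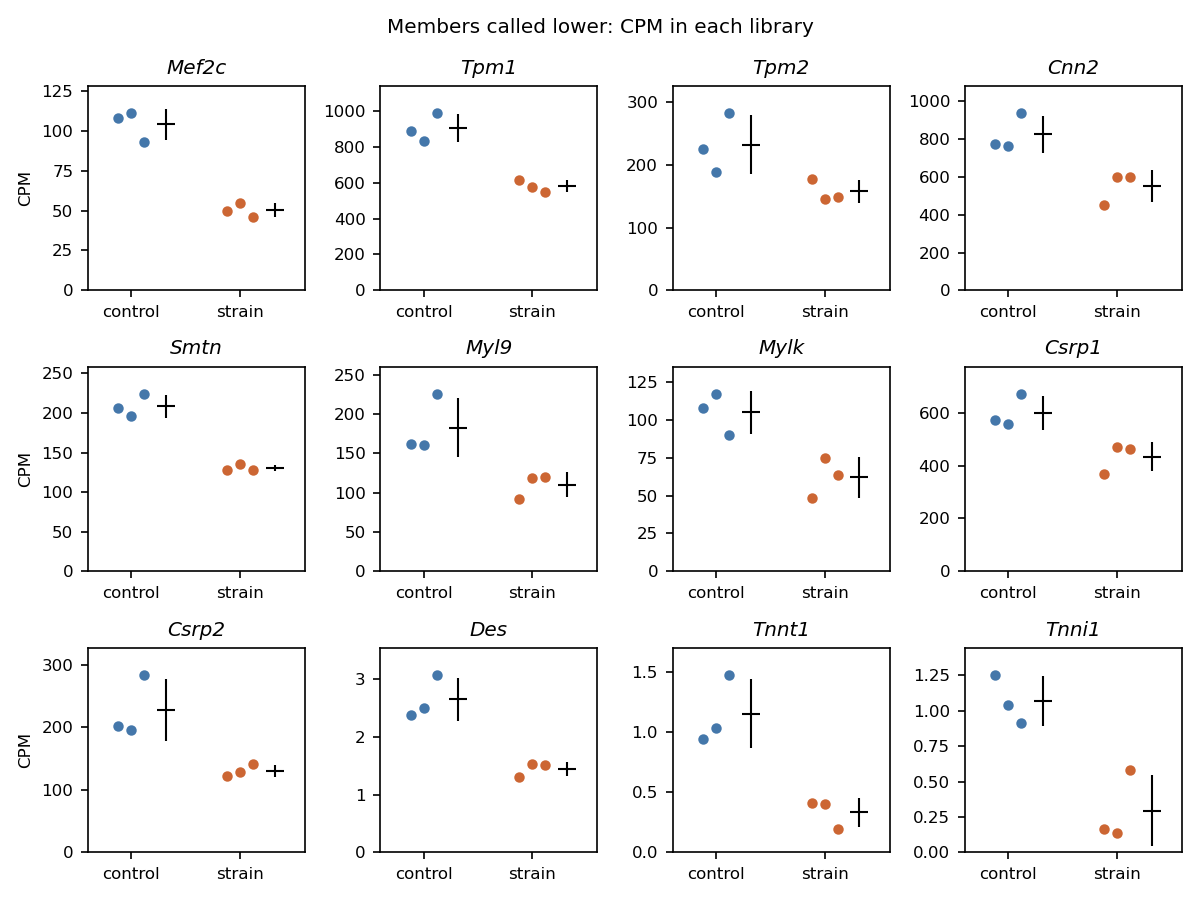
CPM in each library for the 12 members called lower (control in blue, strain in orange; bars are the mean and SD of 3 libraries), each panel on its own axis from 0. In every panel the 3 control points lie above the 3 strain points.

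None of the 4 actin genes was called. Actb and Actg1 encode the actins of all cells, Acta2 and Actg2 those of smooth muscle. Actb was at 3012, 3274 and 3395 CPM in controls and 2551, 3455 and 3527 CPM under strain, a log2 fold change of −0.02 (SE 0.13, adjusted p = 0.933). Acta2 was at 2418, 2538 and 3126 CPM and 1831, 2507 and 2554 CPM (log2 fold change −0.23, SE 0.15, adjusted p = 0.335). In both genes strain replicate 1 was the lowest library and the other strain libraries lay within or above the control range. Without strain replicate 1 the fold change of Actb was 0.11 and that of Acta2 −0.09, and without control replicate 3 as well 0.15 and 0.03, so that neither kept its sign. With library size as scaling that of Actb was 0.03. Actg1 was at 1136, 1177 and 1501 CPM and 804, 1023 and 1102 CPM (log2 fold change −0.38, SE 0.15, adjusted p = 0.113), and its groups did not overlap. Its fold change was −0.24 without control replicate 3 and −0.12 without strain replicate 1 as well (adjusted p = 0.297). Actg2 was at 42.2, 45.2 and 54.0 CPM and 50.9, 59.5 and 57.6 CPM (log2 fold change 0.25, SE 0.12, adjusted p = 0.195). Without control replicate 3 and strain replicate 1, a choice made after seeing the data, it was higher (0.42, adjusted p = 0.00685). The log2 ratio of Actb to Actg1 was 1.41, 1.48 and 1.18 in controls and 1.67, 1.76 and 1.68 under strain, a difference of 0.35. The 4 actin genes encode near-identical proteins and are alike in their coding parts, and some have processed pseudogenes. How the authors counted reads that map to several places is not given, so the split among the actins is uncertain. The same holds for Tpm3, Myl6 and Tmsb4x, which also have processed copies.

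Among the 12 thin filament genes 4 fell. Tropomyosin, which winds along actin and sets which proteins reach it, is encoded by 4 genes, and Tpm1 and Tpm2 were called. Tpm1 was at 886, 834 and 989 CPM in controls and 613, 577 and 550 CPM under strain (log2 fold change −0.64, SE 0.10, adjusted p = 0.00326). Tpm2 was at 225, 189 and 284 CPM and 179, 147 and 149 CPM (log2 fold change −0.56, SE 0.15, adjusted p = 0.0335). The gap between groups was wide for Tpm1 and narrow for Tpm2, whose call needed control replicates 1 and 3 and strain replicates 2 and 3 (without one of them adjusted p up to 0.115, log2 fold change −0.58 to −0.39). Tpm3 was at 219 ± 13.9 and 220 ± 20.7 CPM (SD, n = 3; log2 fold change 0.01, SE 0.10), and Tpm4 at 756 ± 29.0 and 679 ± 15.0 CPM (−0.15, SE 0.09, adjusted p = 0.293). The log2 ratio of Tpm1 to Tpm3 was 2.02, 2.03 and 2.09 in controls and 1.34, 1.51 and 1.35 under strain. That of Tpm1 to Tpm4 was 0.24, 0.19 and 0.33 against −0.14, −0.27 and −0.28, and that of Tpm2 to Tpm1 overlapped between groups (difference 0.09, exact permutation p = 0.5).

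Calponins are actin-binding proteins that damp contraction, and of the 3 genes Cnn2 fell. Cnn2 was at 775, 762 and 940 CPM in controls and 454, 600 and 598 CPM under strain (log2 fold change −0.58, SE 0.14, adjusted p = 0.0196). Without control replicate 3 and strain replicate 1 it was −0.36 and still called (adjusted p = 0.0062). Cnn3 was at 598, 629 and 642 CPM and 453, 547 and 507 CPM, with no overlap, but was not called (−0.31, SE 0.10, adjusted p = 0.0732). DESeq2 called it (adjusted p = 0.0366). Cnn1, the calponin of differentiated smooth muscle, was at 6.66, 5.79 and 7.37 CPM and 5.09, 9.19 and 7.49 CPM (0.13, SE 0.21, adjusted p = 0.717). Its fold change was −0.07 without strain replicate 2 and 0.42 without the libraries that stood apart. The log2 ratio of Cnn1 to Cnn2 was −6.86, −7.04 and −6.99 in controls and −6.47, −6.03 and −6.32 under strain, a difference of 0.69.

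Smtn, which encodes the stress fibre protein smoothelin, gave a tight difference: 206, 196 and 224 CPM in controls against 128, 135 and 128 CPM under strain (log2 fold change −0.68, SE 0.10, adjusted p = 0.00153). The transgelin gene Tagln, often used as an early smooth muscle marker, was at 475, 469 and 633 CPM and 364, 411 and 412 CPM. It did not overlap between groups but was not called by edgeR (−0.41, SE 0.13, adjusted p = 0.0639), and was called by DESeq2 (adjusted p = 0.0280). Without both libraries that stood apart it was −0.20 (adjusted p = 0.0856 by edgeR). Its relative Tagln2 was at 337 ± 39.3 and 303 ± 17.0 CPM (−0.15, SE 0.11). The caldesmon gene Cald1 was at 721 ± 32.8 and 635 ± 27.2 CPM (−0.18, SE 0.10), and the smooth muscle leiomodin gene Lmod1 at 21.6 ± 1.27 and 22.4 ± 3.85 CPM (0.06, SE 0.14). None of these 3 was called. Without both libraries that stood apart Tagln2 was at −0.09 and Lmod1 at 0.20, and Lmod1 was at −0.09 without strain replicate 2.

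In the myosin machinery the regulatory light chain gene Myl9 and the kinase gene Mylk fell, and the 2 heavy chain genes were not called. Myl9 was at 162, 160 and 226 CPM in controls and 91.6, 118 and 121 CPM under strain (log2 fold change −0.73, SE 0.16, adjusted p = 0.0127). Mylk, whose product phosphorylates that light chain, was at 108, 117 and 89.5 CPM and 48.1, 74.8 and 63.3 CPM (−0.76, SE 0.16, adjusted p = 0.0125). The highest Myl9 value was control replicate 3 and the lowest of both genes strain replicate 1, and Myl9 was at −0.43 without both libraries that stood apart (adjusted p = 0.0025). The call of Mylk was just lost without strain replicate 3 (adjusted p = 0.0508). The other regulatory light chain gene of the list, Myl12a, was at 474 ± 83.9 and 427 ± 5.89 CPM (SD, n = 3; −0.15, SE 0.13, adjusted p = 0.461). The essential light chain gene Myl6 was at 774 ± 157 and 618 ± 61.6 CPM (−0.32, SE 0.15, adjusted p = 0.166). Without both libraries that stood apart Myl6 was at −0.07 and Myl12a at −0.01. The log2 ratio of Myl9 to Myl12a was −1.42, −1.39 and −1.34 in controls and −2.24, −1.85 and −1.81 under strain. Myl12a has a near-identical neighbour, Myl12b, so reads could be split between them. Among the non-muscle heavy chains, Myh9 was at 2138 ± 202 and 2408 ± 152 CPM (0.17, SE 0.11) and Myh10 at 458 ± 46.7 and 425 ± 44.4 CPM (−0.11, SE 0.12). The log2 ratio of Myh10 to Myh9 hardly varied in controls, at −2.21, −2.22 and −2.24, and was −2.52, −2.42 and −2.57 under strain.

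**Figure D3:**
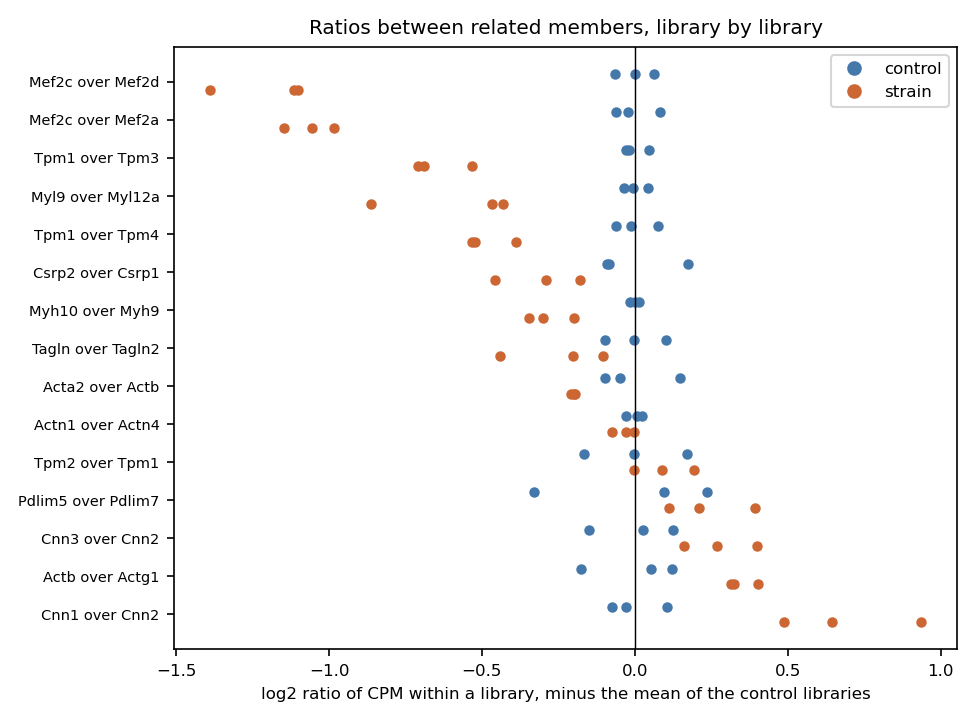
Log2 ratio of CPM of 2 related members within each library, minus the mean of the 3 control libraries (x axis), for 15 pairs (y axis). Blue control and orange strain points do not overlap for the 12 pairs at the smallest p of the exact permutation test, with Mef2c over Mef2d (−1.20) at one end and Cnn1 over Cnn2 (0.69) at the other. No share over other gene pairs was computed.

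The genes grouped as crosslinkers lay on the other side of 0, and none was called. Filamins and alpha-actinins bundle actin filaments or anchor them, and Filip1l was only grouped with them in the list. The 5 log2 fold changes ran from 0.05 to 0.39 with a median of 0.16, and that of Filip1l was below 0 without control replicate 3 or strain replicate 1 (−0.12 without both). The filamin A gene Flna was at 1817, 2201 and 1544 CPM in controls and 1752, 2959 and 2554 CPM under strain (0.39, SE 0.19, adjusted p = 0.198). Strain replicate 1 fell inside the control range, and the other strain libraries lay above it. Without strain replicate 1 Flna was called higher (0.57, adjusted p = 0.0471), as it was without that library and control replicate 3 (0.46, adjusted p = 0.0103). The muscle filamin gene Flnc was at 570, 673 and 435 CPM and 610, 724 and 731 CPM (0.30, SE 0.15, adjusted p = 0.217). The alpha-actinin genes Actn1 and Actn4 were at 550 ± 16.2 and 598 ± 69.4 CPM (0.12, SE 0.11) and at 436 ± 13.0 and 486 ± 59.0 CPM (0.16, SE 0.11). Without both libraries Actn4 was called higher (0.27, adjusted p = 0.0299) and Actn1 was not (0.21, adjusted p = 0.0698). Leaving out both was a choice made after seeing the data, so the calls of Flna and Actn4 in that fit are descriptive only. Filip1l, a gene named for its likeness to a filamin-interacting protein, was at 33.8 ± 2.27 and 34.9 ± 5.33 CPM (0.05, SE 0.13).

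Of the 4 LIM-domain genes, which encode small adaptors on stress fibres, Csrp1 and Csrp2 fell. Csrp2 was at 202, 195 and 284 CPM in controls and 122, 129 and 141 CPM under strain (log2 fold change −0.80, SE 0.14, adjusted p = 0.00554). Csrp1 was at 571, 555 and 672 CPM and 369, 472 and 461 CPM (−0.47, SE 0.12, adjusted p = 0.0351). Control replicate 3 was the highest library of both. The call of Csrp1 was lost without any single library but control replicate 2 (adjusted p up to 0.0879). Without control replicate 3 and strain replicate 1 together it was −0.27 and kept its call (adjusted p = 0.0261). Pdlim7 was at 172 ± 19.3 and 145 ± 9.62 CPM (−0.24, SE 0.11, adjusted p = 0.165) and Pdlim5 at 146 ± 14.7 and 146 ± 15.9 CPM (−0.0013, SE 0.12). Without both libraries that stood apart Pdlim7 was at −0.10, and the sign of Pdlim5 changed with the scaling and the libraries.

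The striated muscle genes were at low levels, none above 3.07 CPM in any library. Des, the intermediate filament of muscle, was at 2.38, 2.50 and 3.07 CPM in controls and 1.30, 1.52 and 1.50 CPM under strain (log2 fold change −0.88, SE 0.24, adjusted p = 0.0372). The slow troponin T gene Tnnt1 had 36, 37 and 52 counts in controls and 17, 15 and 8 under strain (−1.78, SE 0.41, adjusted p = 0.0193). The slow troponin I gene Tnni1 had 48, 37 and 32 counts and 7, 5 and 24 (−1.84, SE 0.52, adjusted p = 0.0430). The groups did not overlap in any of the 3, but strain replicate 3 stood well above the other strain libraries for Tnni1. Des was no longer called in any of the 6 fits that left out a library (adjusted p up to 0.0999), nor Tnni1 in those without any library but strain replicate 3 (up to 0.135, and a log2 fold change of −2.80 without that library), nor Tnnt1 without control or strain replicate 3 (up to 0.0754). The cardiac troponin T gene Tnnt2, which was not tested, had 7, 8 and 5 counts in controls and 4, 5 and 0 under strain. In all, 6 of the 12 calls, those of Mef2c, Tpm1, Cnn2, Smtn, Myl9 and Csrp2, held in each of the 13 alternatives run.

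**Figure D4:**
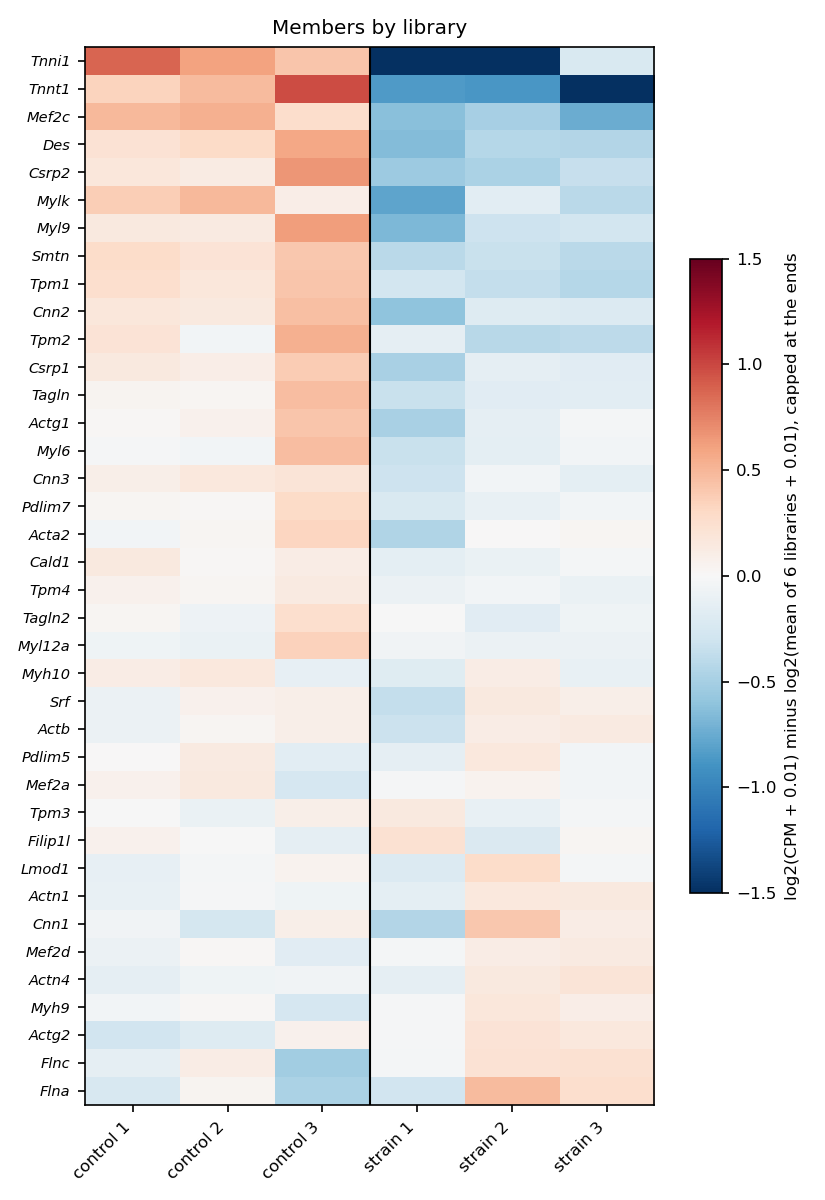
Log2 of CPM + 0.01 in each library relative to the mean of the 6 libraries (colour), for 38 tested members ordered by fold change (rows) and the 6 libraries (columns). The upper rows are red in controls and blue under strain, and control replicate 3 is the highest library in 18 rows and strain replicate 1 the lowest in 21.

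A list of 79 other genes of the pathway, also chosen with earlier results of these data known, was read beside the members. Of 73 tested, 11 were lower and 1 was higher, or 15.1% and 1.37% against the same background of 7.39% and 5.94%, with a median log2 fold change of 0.03. The lower genes lay mostly among stress fibre proteins, at 6 of 19 tested. Fhl1, a four-and-a-half LIM protein gene, was at 92.1, 101 and 92.1 CPM in controls and 54.0, 54.6 and 51.3 CPM under strain (−0.84, adjusted p = 0.000444 by edgeR). The PDZ-LIM genes Pdlim2 and Pdlim4 had log2 fold changes of −0.76 (138 to 81.6 CPM, adjusted p = 0.00543) and −1.08 (10.9 to 5.17 CPM, adjusted p = 0.00326), and the nexilin gene Nexn of −0.79 (adjusted p = 0.0313). The call of Nexn needed those same 4 libraries as that of Tpm2 (adjusted p up to 0.0991 without one).

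Of 27 actin turnover genes 1 fell, Tmsb4x, the actin monomer-binding thymosin, at 375, 348 and 542 CPM in controls and 259, 253 and 240 CPM under strain (log2 fold change −0.75, adjusted p = 0.0106). Its call was lost without strain replicate 3 (adjusted p = 0.0534). The cofilin gene Cfl1 was at 1406 ± 234 and 1323 ± 51.7 CPM (SD, n = 3) and was not called. The 1 higher gene was Ppp1r12b, a targeting subunit of the myosin phosphatase, at 37.2, 44.0 and 30.4 CPM and 48.5, 58.0 and 50.0 CPM (0.49, adjusted p = 0.0463). Its call was lost without any library but control replicate 2 (adjusted p up to 0.167). Among the remaining lower genes, named after their values were seen, were Synpo, Myl12b, Actn3 and Ppp1r14a. With 1 library left out 5 to 9 of the pathway genes were lower (5 without control replicate 1 or strain replicate 3) and 0 to 3 higher (3 without control replicate 2). Without control replicate 3 and strain replicate 1 together 7 were higher and 16 lower.

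Peaks near the members were counted in the 4 ATAC-seq lists, which held 15978 and 26652 peaks in GFP replicates 1 and 2 and 15980 and 13610 in knockout replicates 1 and 2. Overlapping peaks were merged into 29289 regions, of which 125 lay within 5 kb of a member's gene body, at 34 of the 41 members (82.9%, against 78.6% of 14338 tested genes). Regions in all 4 libraries numbered 30 of 125, or 24.0% against 26.4% of all regions. Regions in both GFP and neither knockout library numbered 19, or 15.2% against 10.6%, and those in both knockout and neither GFP library 2, or 1.60% against 1.57%. Each library on its own held 64 and 106 member regions in GFP replicates 1 and 2 and 49 in each knockout library. GFP replicate 1 and knockout replicate 1 have peak lists of nearly the same length, and of all regions each held 47.7%, while of member regions they held 51.2% and 39.2%. GFP replicate 2 held 84.8% of member and 85.5% of all regions, and knockout replicate 2 held 39.2% and 40.9%, both close to the background. Lists of unequal length and unknown read depth make absence of a peak a weak measure, and no test between the groups was made. With the 13000 peaks of lowest q in each library, the counts were 12 GFP-only and 5 knockout-only of 89 member regions (13.5% and 5.62%, against 7.95% and 5.16% of all regions).

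**Figure D5:**
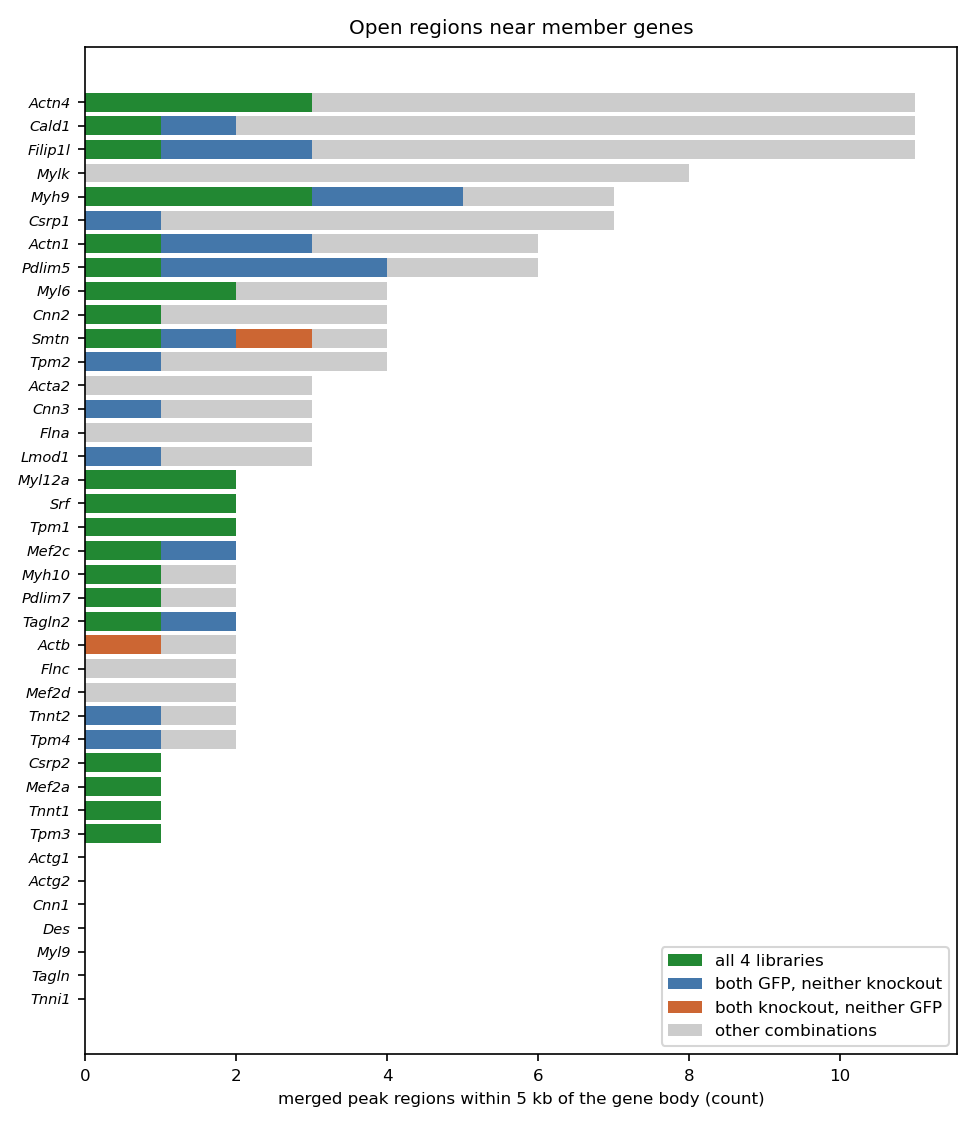
Number of merged ATAC-seq regions within 5 kb of the gene body (x axis) for 39 members, split by the libraries that held a peak. Actn4, Cald1 and Filip1l have 11 regions each, 7 members at the bottom have none, and 14 members carry a region found in both GFP and neither knockout library.

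The promoter windows of contractile genes differed in whether they held a peak. Of the 36 members with a promoter window, 12 had a peak there in all 4 libraries (33.3%, against 37.6% of tested genes), namely Srf, Mef2a, Tpm1, Tpm3, Cald1, Myh9, Myh10, Myl6, Myl12a, Actn1, Actn4 and Pdlim5. Myl6 has 2 windows, and the one with the CArG box shown above held a peak in knockout replicate 2 alone, while the peaks in all 4 libraries lay at its other start. At the Myh10 start (chr11:68691416-68692383) the authors' fold enrichment over local background was 8.81 and 10.5 in GFP and 8.66 and 8.82 in knockout replicates 1 and 2. The Srf region that covers both CArG boxes (chr17:46555940-46556645) had 4.38 and 4.09, and 5.49 and 4.33. By role, the regions of highest mean fold enrichment over the 4 libraries lay at the starts of Mef2a (chr7:67372870-67373556, at 6.52 and 11.0 in GFP and 5.92 and 5.64 in knockout), Cald1 (chr6:34598038-34598778, at 7.17 and 6.84, and 8.09 and 6.29), Actn1 (chr12:80259922-80260943, at 6.63 and 7.33, and 6.23 and 7.60) and Myh10. For other roles they lay across an edge of the gene body of Csrp2, beside Tnnt1 and, for the actins, at the start of Acta2. Csrp2 had no promoter window, so its region could not be placed at a start. No peak lay in the window in any library for 14 members (38.9%, against 33.7%), including Cnn1, Cnn2, Myl9, Mylk, Tpm2, Tpm4, Mef2c and Actg1. The window's edge decided this for Tpm4, where a peak of knockout replicate 2 began at chr8:72135338 and the window ended at 72135337. At Tpm2 a peak of GFP replicate 2 ended at chr4:43523435, close to the window that begins at 43523505. At Cnn2 the box printed above was without a peak, and a region upstream of the gene (chr10:79984664-79985454) was present in all 4 libraries. No region lay within 5 kb of Myl9, Actg1, Actg2, Cnn1, Tagln, Des or Tnni1, although Actg1, Tagln and Myl9 had RNA levels of 1271, 525 and 183 CPM in controls.

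Windows at 3 starts had a peak in both GFP and neither knockout library: Cnn3 (chr3:121426163-121427012), Smtn (chr11:3538956-3539650) and Tagln2 (chr1:172499889-172500213). That is 8.33% of the 36 members, against 2.92% of 10514 tested genes with a window and a gene body placed on an autosome or the X chromosome. The fold enrichments in GFP replicates 1 and 2 were 4.98 and 6.70 for Cnn3, 4.62 and 4.50 for Smtn and 3.22 and 3.56 for Tagln2. With 13000 peaks a library Cnn3 and Smtn remained (5.56%, against 1.83% of tested genes), and Pdlim7 had a knockout-only peak at its start (2.78%, against 2.42%). At Acta2 the start region (chr19:34255138-34255797) had a peak in both GFP libraries and knockout replicate 1 but not in knockout replicate 2.

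Within gene bodies, the GFP-only region of highest enrichment lay in Mef2c (chr13:83604145-83604765), at 7.14 and 8.57 in GFP replicates 1 and 2 and with no peak in the knockout libraries, while another Mef2c region (chr13:83524364-83525107) was present in all 4. Filip1l had 2 GFP-only regions, the higher at 6.81 and 8.01 (chr16:57383381-57384133), and Pdlim5 had 3 and Actn1 and Myh9 2 each. Single GFP-only regions lay in Tpm2, Tpm4, Cald1, Lmod1 and Tnnt2, and that of Csrp1 lay outside its gene body (chr1:135755135-135755874). The 2 knockout-only regions lay in Actb (chr5:142906423-142906948, at 3.94 and 4.99) and Smtn (chr11:3535231-3535459, at 3.99 and 3.95). Mylk, which spans 257 kb, had 8 regions and none in more than 2 libraries. Of the 12 members lower under strain 4 carried a GFP-only region (Mef2c, Tpm2, Smtn and Csrp1), as did 9 of the 28 not called. Of all 41 members 34.1% carried such a region, against 11.5% of 14338 tested genes, and the median gene span was 26.4 kb for members and 19.7 kb for those genes. The RNA and ATAC libraries come from different cells and conditions, so a change in one cannot be tied to the other.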

How the data were processed

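RNA-seq and ATAC-seq libraries were grouped by their titles. The authors deposited whole-number read counts per gene symbol. The submitters' processing notes name mm10, STAR, HTSeq, DESeq2 and Trim Galore 0.6.5 for them. For strand setting and annotation, nothing was stated. Antisense or overlapping genes may therefore share reads. The cDNA was amplified, per the labels' protocols, without stated molecular identifiers, so limits cover counting error only. The authors deposited 1 peak list per ATAC-seq library (Bowtie2 2.4.2 and MACS2, per the submitters' processing notes), with a fold enrichment ratio, −log10 p and −log10 q and a display score for each peak; the score was not used.

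Counts were scaled by TMM, filtered with filterByExpr (15335 genes left) and tested with edgeR 4.0.16 in R 4.3.3, and the standard error is the absolute log2 fold change over the square root of F. The test was checked on simulated data. Those were drawn from the fitted means and dispersions with no library that stands apart, so the check does not cover that trait of the real libraries. Alternatives were DESeq2 1.42.0, limma-voom 3.58.1, other scaling and filters, a replicate block and leaving out libraries. Separate cultures are not stated for the replicates, and the p-values reflect how these libraries vary, which may be technical. Peaks overlapping by 1 bp were merged, and gene bodies and promoters came from RefSeq GRCm38.p6. No transcript lengths were used here, so levels are not compared between genes, and the planned family shares were replaced by log2 ratios of CPM with 0.01 added, a choice made after seeing the data. Members called by edgeR were named with every library's value; of other pathway genes, up to 6 called in each direction by size with a mean of at least 5 CPM. The members and lists were chosen with earlier results of these data known. Some items are not reported here singly or drawn, but stay in the fits and counts.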

Additional observations from a re-analysis of the deposited data

How the results depend on the processing

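The 12 lower members became 7 to 11 with 1 library left out, and 0 higher members became 0 to 1 (Flna without strain replicate 1). Over all genes 911 higher and 1134 lower became 369 to 1085 and 577 to 1244. Library size as scaling gave 55.6% of all calls higher against 44.5% with TMM. With no filter on low counts 1428 genes and 1 member (Flna) were higher. Without control replicate 3 and strain replicate 1, chosen after seeing the data, 1512 genes and 3 members were higher. Of other pathway genes, 1 higher became 4 with DESeq2, 2 with library size as scaling, 4 with no filter, 7 without both libraries and 0 to 3 with 1 library left out, and 11 lower became 5 to 9 with 1 library left out, 14 with DESeq2 and 16 without both libraries. With the replicate block 1557 genes, 0 members and 4 pathway genes were higher. Lower in that fit were 1619 genes, 15 members and 14 pathway genes, adding for the members Actg1, Cnn3 and Tagln. Deviations of same-numbered libraries correlated at 0.03, 0.21 and 0.09, not all over 0.1, and those of unlike number at −0.19 to 0.09. Strain replicates 2 and 3 correlated best with the control of their own number. Strain replicate 1 correlated best with control replicate 3, at 0.09 against 0.03 for its own number. The labels do not say that a number marks a shared culture or day, so the numbers were not taken as pairs. Whether they are pairs is not settled by these values. The peak counts come from no test and were not paired. Where a peak had to cover 50% of a region, 18 in place of 30 member regions were in all 4 libraries (14.4% against 15.9% of all regions, in place of 24.0% against 26.4%), and with 13000 peaks a library 12 were GFP-only and 5 knockout-only; these causes were not tested. No called fold change changed sign, but among the members reported singly 27 fold changes of 10 uncalled genes did. With library size as scaling Mef2a was at 0.0473, Actb at 0.0252 and Pdlim5 at 0.0463, and Mef2a was at 0.0082 with limma-voom and 0.0084 with the replicate block. Without both libraries that stood apart Srf was at 0.126, Actb at 0.151, Acta2 at 0.0293, Tpm3 at −0.0212 and Filip1l at −0.12. With 1 library left out, the range was −0.146 to 0.0905 for Srf, −0.112 to 0.0803 for Mef2a, −0.11 to 0.112 for Actb, −0.0676 to 0.0629 for Tpm3, −0.0738 to 0.334 for Cnn1, −0.0896 to 0.158 for Lmod1, −0.231 to 0.0056 for Myl12a, −0.0692 to 0.148 for Filip1l and −0.0949 to 0.0715 for Pdlim5. The planned family shares and their alternatives were not run.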
